A study of Homo sapiens with 23 samples.

Results

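The genes described here are 51 genes of the kinetochore, the spindle assembly checkpoint, the mitotic spindle and the anaphase-promoting complex, followed in ovarian cancer cell lines that had acquired resistance to prexasertib, an inhibitor of the checkpoint kinase CHK1. They were chosen by name, as a fixed list. All 51 were among the 21658 genes of the expression table. RNA-seq was carried out on 23 libraries from 4 established lines, Kuramochi, OVSAHO, OV-90 and EFO-21, each as the parental line and as its prexasertib-resistant derivative. Every group held 3 libraries except parental OV-90, which held 2. No genotype, engineered allele or other agent is given for any group, so the parental and resistant cells of a line differ by the selection alone as far as the labels say. Resistance was reached by a long-term escalation of the drug concentration, and the time it took varied among lines. The number of derivations per line, and whether prexasertib was present at harvest, are not given in the sources used here. The libraries of a group are called biological replicates, but nothing says that they were separate derivations, so p-values measure only the spread between these libraries, which may be technical.

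The kinetochore is the protein assembly that builds on centromeric chromatin, marked by the histone variant CENPA, and attaches chromosomes to spindle microtubules through the KMN network (KNL1, the MIS12 complex and the NDC80 complex). Kinetochores that are not attached recruit MAD1L1 and MAD2L1, and the checkpoint complex that forms there holds back CDC20, the activator of the anaphase-promoting complex, a ubiquitin ligase. Once all chromosomes are attached, the ligase marks securin (PTTG1) and cyclin B for destruction, separase (ESPL1) is freed and sister chromatids part. Many of these genes are transcribed mainly in G2 and mitosis. In RNA from whole cultures, fewer cells in mitosis and less RNA per mitotic cell cannot be told apart.

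Expression is given on the log2 scale, after quantile normalization by the authors, and a difference of 1 is a 2-fold change. Read counts are not part of the table and the depth behind each value is unknown. Replicate profiles correlated at 0.971 to 0.988 across genes, except for the pair of parental OV-90 libraries at 0.952, and no 2 libraries of a group were identical. PAX8, a Mullerian lineage factor, was at or above the 83.6th percentile in Kuramochi, OVSAHO and EFO-21 and at or below the 13.3rd percentile in OV-90. The summed level of 10 blood, endothelial and fibroblast markers was 12.13 to 13.28 (log2) in OV-90, where LUM, a fibroblast marker, reached 13.21, and 6.84 to 9.20 in the other lines. HBB and DCN were at or near 0 in EFO-21. The summed marker level was not higher in resistant than in parental libraries of Kuramochi, OV-90 or EFO-21, and it was higher in resistant OVSAHO (7.74 to 8.04 against 6.84 to 7.60). The summed level of 7 epithelial and Mullerian markers was lower in every resistant library than in any parental one of the same line, 12.04 to 12.1 against 12.94 to 13.2 in Kuramochi, 10.96 to 11.04 against 11.73 to 11.77 in OVSAHO, 13.24 to 13.31 against 13.54 to 13.6 in OV-90 and 12.25 to 12.31 against 12.57 to 12.62 in EFO-21. The part of these markers in the results was not tested.

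Promoters are shown first because the members were chosen for their shared function and the promoter letters are a feature that the choice did not use. Genes of G2 and mitosis are known for cell cycle homology regions, whose core reads TTTGAA, and for CCAAT boxes bound by NF-Y. Promoter windows of 300 bases, 250 before and 50 after the annotated start, were taken from RefSeq (GRCh38.p14) and found for 41 of the 51 genes. TTTGAA, searched on both strands, was present in 22 of the 41 windows (53.7%), against 10.7% of the 14340 windows of all measured genes. CCAAT was present in 28 (68.3%), against 36.1%, and both were present in 15 (36.6%), against 4.4%. The 250 bases before the start of 4 genes are printed below 5′ to 3′ on the plus strand, with both motifs (or their reverse complements TTCAAA and ATTGG) in capitals. CENPA, CDCA8 and CDC20 hold both motifs, and CDC16, the gene with the largest fall in Kuramochi, has a CCAAT and no TTTGAA in these bases.
CENPA: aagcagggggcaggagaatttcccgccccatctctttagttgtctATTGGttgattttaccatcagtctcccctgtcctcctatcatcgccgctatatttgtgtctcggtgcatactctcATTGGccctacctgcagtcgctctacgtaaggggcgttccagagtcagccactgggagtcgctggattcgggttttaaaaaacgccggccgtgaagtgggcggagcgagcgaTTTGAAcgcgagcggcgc
CDCA8: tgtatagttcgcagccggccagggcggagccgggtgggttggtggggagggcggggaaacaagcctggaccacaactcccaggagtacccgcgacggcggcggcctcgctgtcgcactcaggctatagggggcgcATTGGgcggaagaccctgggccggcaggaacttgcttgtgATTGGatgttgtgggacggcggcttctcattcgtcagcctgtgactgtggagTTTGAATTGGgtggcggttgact
CDC20: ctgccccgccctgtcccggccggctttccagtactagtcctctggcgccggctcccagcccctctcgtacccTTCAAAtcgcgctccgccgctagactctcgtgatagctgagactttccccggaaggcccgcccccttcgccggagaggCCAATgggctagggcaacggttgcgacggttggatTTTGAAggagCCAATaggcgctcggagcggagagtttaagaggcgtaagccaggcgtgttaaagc
CDC16: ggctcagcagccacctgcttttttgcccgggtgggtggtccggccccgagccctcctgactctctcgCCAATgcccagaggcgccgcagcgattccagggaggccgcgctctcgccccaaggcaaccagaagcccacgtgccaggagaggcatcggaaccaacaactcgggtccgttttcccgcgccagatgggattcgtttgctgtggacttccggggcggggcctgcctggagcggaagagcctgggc
These stretches lie at chr2:26785806-26786055 (CENPA), chr1:37692266-37692515 (CDCA8), chr1:43358731-43358980 (CDC20) and chr13:114234647-114234896 (CDC16) of GRCh38.p14. In CDCA8 the TTTGAA nearest the start and an ATTGG share 1 base. A match describes the letters of the window and is not a measured site.

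The 4 parental lines already differed in nearly every member before selection. By limma's F test over the parental groups, 50 of the 51 genes differed (background: 93.5% of all genes), KNL1 being the exception (adjusted p = 0.115). The 5 strongest were CDC20, SPC24, KIF2C, CDC16 and BUB3. CDC20 averaged 11.70 in parental OVSAHO, 11.20 in Kuramochi, 10.38 in OV-90 and 9.40 in EFO-21, and every pair of lines differed (limma, highest adjusted p = 0.000127, Kuramochi against OVSAHO). SPC24, a subunit of the NDC80 complex, averaged 9.59 in OVSAHO, 8.89 in EFO-21, 8.21 in Kuramochi and 7.49 in OV-90, again with every pair apart (highest adjusted p = 1.8e-05, limma). KIF2C, a microtubule depolymerase, fell into a high pair, Kuramochi at 9.43 and OVSAHO at 9.29, which did not differ beyond the spread (limma, adjusted p = 0.107), and a low pair, OV-90 at 8.21 and EFO-21 at 8.03 (adjusted p = 0.067, limma). CDC16, a scaffold subunit of the anaphase-promoting complex, was high in OVSAHO (8.16) and OV-90 (8.15), which did not differ beyond the spread (adjusted p = 0.878, limma), and lower in Kuramochi (6.97) and EFO-21 (6.64). BUB3, a WD-repeat checkpoint protein, stood at 11.61 in OVSAHO and between 10.09 and 10.33 in the other 3 lines. SKA1, a microtubule-binding kinetochore protein, showed the same kind of split, 7.90 in OVSAHO against 5.54 to 6.06 elsewhere.

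Resistance was not accompanied by 1 common direction of the 51 genes. In resistant Kuramochi, 21 members were higher and 10 lower at a limma adjusted p under 0.05, over a background of 23.6% of all genes higher and 23.3% lower (46.9% in either direction), so that 41.2% and 19.6% of the members moved. In resistant OVSAHO, 12 were higher and 7 lower (23.5% and 13.7% of the members, background 17.1% and 16.2%, 33.3% in either direction). In resistant OV-90, 6 were higher and 14 lower (11.8% and 27.5%, background 18.1% and 17.9%, 36% in either direction). In resistant EFO-21, 12 were higher and 13 lower (23.5% and 25.5%, background 25% and 23.4%, 48.4% in either direction). Members lay above the background among higher genes in Kuramochi and among lower genes in OV-90, and within a few percentage points of it in EFO-21. The median change of the members was 0.18, 0.05, -0.05 and 0.02 (log2) in Kuramochi, OVSAHO, OV-90 and EFO-21, against -0.02, 0.002, -0.07 and 0.01 for all genes. Without library 16, 13 members were higher in Kuramochi. In OVSAHO, 5 were higher and 4 lower without library 7, 6 and 4 without library 8 or 21, 9 and 4 without library 19, and 4 and 3 without library 20. Leaving out any 1 of the 3 resistant OV-90 libraries (13, 14 or 15) left 0 members past the threshold in either direction in limma, while 4 to 7 higher and 13 to 14 lower members had an unadjusted p under 0.05. No share of all genes called is given for any fit without a library. Shifts in these counts are therefore not a result about the members. Without parental library 3, 22 members were higher and 16 lower, and without parental library 2, 6 and 15. With a smooth trend on transcript length subtracted from each library, an alternative chosen after seeing the data, the split in OV-90 was 2 higher and 14 lower (background 14.2% and 18.6%), but it was not the same set, since 6 of the lower calls were lost and 6 others gained. The members whose calls in OV-90 were lost in that fit were AURKB, BUB1B, CDC20, CENPF, INCENP, NDC80, PMF1, PTTG1, TTK and UBE2C, and their values with the trend removed are given beside the length of the transcripts.

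The changes were small beside those of all 21658 genes, a set with no filter on level. The members lay at median percentiles of 44.2 (KNL1) to 96.8 (CDC20) among these genes. The comparison was not matched for level or for the way values were made. Of the 21658 genes, 16448, all 51 members among them, were valued by a robust linear model. The other 5210 were valued by a mean of log2 exon values. The median absolute change of the members was 0.27 in Kuramochi, 0.12 in OVSAHO, 0.37 in OV-90 and 0.21 in EFO-21, against 0.51, 0.28, 0.55 and 0.36 for all genes. Only 6 changes reached 2-fold: CDC16 and MAD1L1 in Kuramochi, CENPA, CENPF and CENPM in OV-90, and MAD2L1 in EFO-21. That is 1 member higher and 1 lower in Kuramochi (background 11.8% and 10.6% of all genes), 0 and 0 in OVSAHO (3.93% and 3.83%), 1 higher and 2 lower in OV-90 (9.5% and 6.56%), and 0 higher and 1 lower in EFO-21 (7.11% and 7.15%). Parental and resistant libraries did not overlap for 33 members in Kuramochi, 26 in OVSAHO, 40 in OV-90 and 32 in EFO-21 (background 59.2%, 48.4%, 69.1% and 59.7% of all genes, members 64.7%, 51%, 78.4% and 62.7%). With groups of 3 and 3 or 2 and 3 libraries the smallest p of an exact permutation test is 0.1, so the p-values of single genes are those of limma, which shares the spread across genes.

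**Figure D1:**
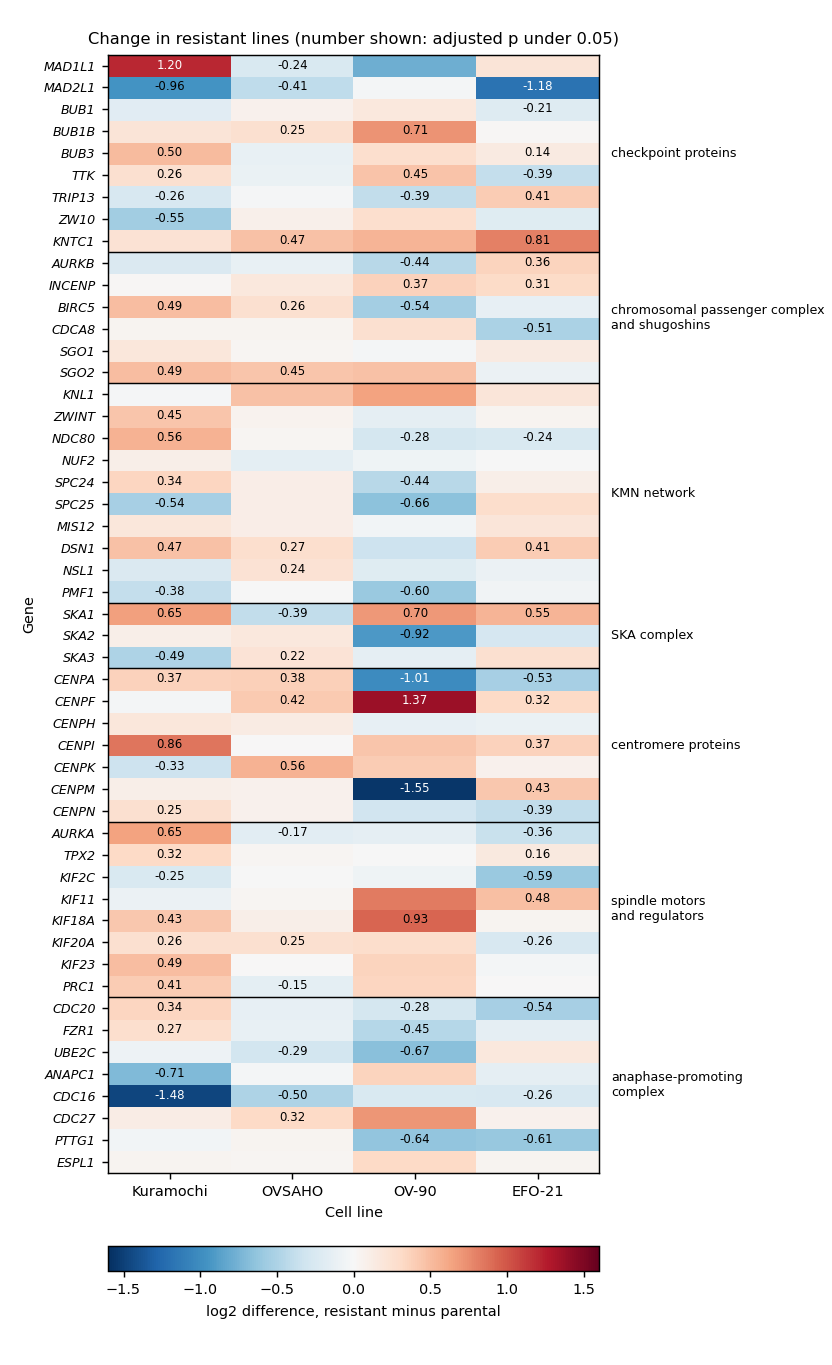
Change of each of the 51 genes (rows, grouped by role) in the 4 resistant lines (columns), as the log2 difference of resistant minus parental group means, with red for higher and blue for lower. A number is printed where limma's adjusted p was under 0.05, and most rows change colour from line to line, with MAD2L1 and CDC16 carrying a number below 0 in 3 lines and CENPF, SKA1 and DSN1 a number above 0 in 3.

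The checkpoint proteins moved in both directions, with the partners MAD1L1 and MAD2L1 at the extremes. Of the 9 genes, 3 rose and 3 fell in Kuramochi, 2 and 2 in OVSAHO, 2 and 1 in OV-90, and 3 and 3 in EFO-21. MAD2L1, the effector that binds and holds CDC20, fell in 3 of the 4 lines. In EFO-21 it stood at 8.0, 7.88 and 7.95 in the parental libraries and at 6.42, 6.89 and 6.97 in the resistant ones. All resistant libraries lay below all parental ones, 1 of them (library 22) by more than the others, and the difference was -1.18 ± 0.15 (SE, n = 3 and 3), 0.441 of the parental level (limma, adjusted p = 0.0014).

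In Kuramochi, MAD2L1 values of 8.10, 8.21 and 8.21 in parental libraries compared with 7.21, 7.14 and 7.31 in resistant ones, a difference of -0.96 ± 0.08 (SE, limma adjusted p = 0.000183). In OVSAHO it went from 8.65, 8.62 and 8.73 to 8.25, 8.30 and 8.25, a difference of -0.41 ± 0.04 (SE, limma adjusted p = 0.00145). The groups were apart in both lines. In OV-90 parental libraries at 8.12 and 8.25 overlapped resistant ones at 8.17, 8.17 and 8.10, and the change of -0.04 did not pass the test (limma adjusted p = 0.711). With the transcript length trend removed the difference in OV-90 was -0.56 and passed (limma adjusted p = 0.0174), so the absence of a fall there depended on the processing.

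MAD1L1, the receptor that brings MAD2L1 to kinetochores, rose in Kuramochi and fell in OVSAHO. In Kuramochi the parental libraries were at 6.81, 7.11 and 7.15 and the resistant ones at 8.28, 8.12 and 8.29. The groups were far apart, with a rise of 1.20 ± 0.11 (SE, n = 3 and 3), 2.3 times the parental level (limma, adjusted p = 0.000343). In OVSAHO values of 6.53, 6.60 and 6.49 became 6.36, 6.24 and 6.30, a difference of -0.24 ± 0.07 (SE, limma adjusted p = 0.0376). In OV-90, parental values of 6.93 and 6.20 and resistant values of 5.87, 5.87 and 5.62 did not overlap, but the parental pair was itself wide apart and the difference of -0.78 ± 0.26 did not pass the test (limma adjusted p = 0.0701). In EFO-21 all libraries lay between 5.43 and 5.76, and the difference of 0.20 did not pass either (adjusted p = 0.13, limma).

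KNTC1, the ROD subunit of the complex that loads MAD1L1 and MAD2L1 onto kinetochores, had the largest rise of any member in EFO-21, 0.81 ± 0.06 (SE, limma adjusted p = 0.0002), and rose by 0.47 in OVSAHO. Its partner in the same complex, ZW10, fell by 0.55 in Kuramochi. BUB1B, the BUBR1 component of the checkpoint complex, rose by 0.25 in OVSAHO and 0.71 in OV-90, and BUB3 rose by 0.50 in Kuramochi and 0.14 in EFO-21. BUB1, the kinase that recruits them, fell by 0.21 in EFO-21 and passed in no other line. TTK (MPS1), the kinase that starts checkpoint signalling, rose by 0.26 in Kuramochi and 0.45 in OV-90 and fell by 0.39 in EFO-21. TRIP13, the ATPase that resets MAD2L1 after use, went the opposite way to TTK in each of these, with -0.26 in Kuramochi, -0.39 in OV-90 and 0.41 in EFO-21. With the length trend removed, the calls of BUB1B and TTK in OV-90 fell just short (limma adjusted p = 0.0524 and 0.0525), as did those of TTK in Kuramochi (0.0585) and BUB3 in EFO-21 (0.0752).

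**Figure D2:**
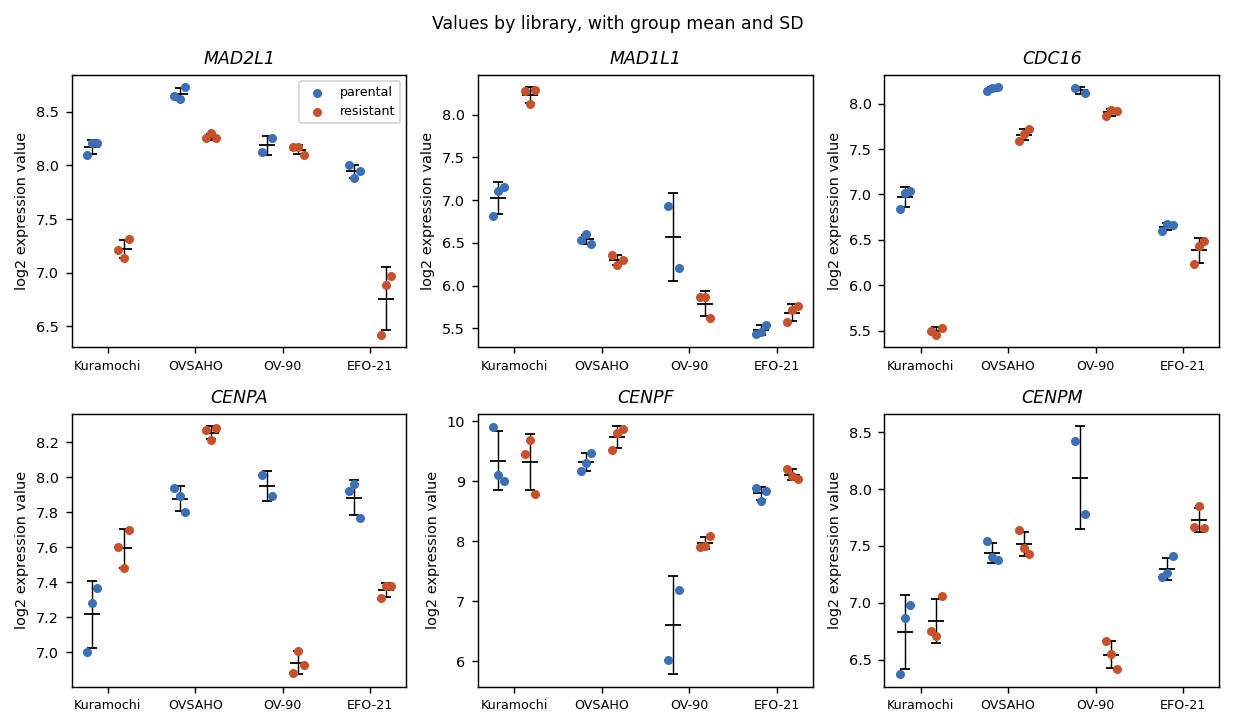
Log2 expression value of the 6 genes with a change of at least 2-fold in any line, in each of the 23 libraries (points, blue for parental and orange for resistant), with the group mean (bar) and SD (whisker). In MAD2L1 the resistant libraries lie below the parental ones in Kuramochi, OVSAHO and EFO-21, whereas in CENPF and CENPM the 2 parental OV-90 libraries lie apart from each other.

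In the chromosomal passenger complex and the shugoshins, which correct faulty attachments and protect centromeric cohesion, 2 of 6 genes rose and 0 fell in Kuramochi and in OVSAHO, 1 rose and 2 fell in OV-90, and 2 rose and 1 fell in EFO-21. BIRC5 (survivin) rose by 0.49 in Kuramochi and 0.26 in OVSAHO and fell by 0.54 in OV-90. AURKB, the kinase of the complex, fell by 0.44 in OV-90 and rose by 0.36 in EFO-21, and INCENP, its scaffold, rose by 0.37 and 0.31 in the same lines. The OV-90 calls of AURKB and INCENP were lost with the length trend removed (limma adjusted p = 0.298 and 0.995). CDCA8 (borealin) fell by 0.51 ± 0.06 (SE) in EFO-21 and passed in no other line (limma adjusted p = 0.00153). SGO2 rose by 0.49 in Kuramochi and 0.45 in OVSAHO. SGO1 passed in no line, with differences between -0.03 and 0.19.

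The KMN network, the microtubule-binding core of the kinetochore, had 4 rises and 2 falls among its 10 genes in Kuramochi, 2 and 0 in OVSAHO, 0 and 4 in OV-90, and 1 and 1 in EFO-21. DSN1, of the MIS12 complex, was the member of the network that rose in 3 lines. Its values went from 6.32, 6.62 and 6.38 to 6.91, 6.86 and 6.96 in Kuramochi, from 7.41, 7.45 and 7.46 to 7.58, 7.75 and 7.78 in OVSAHO, and from 6.78, 6.61 and 6.65 to 6.99, 7.09 and 7.19 in EFO-21. The rises were 0.47, 0.27 and 0.41, with limma adjusted p-values of 0.0128, 0.0239 and 0.00662. In OV-90 the values of 6.75 and 6.88 became 6.48, 6.51 and 6.46, a difference of -0.33 in the other direction that did not pass the test (limma adjusted p = 0.0594).

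The 4 subunits of the NDC80 complex did not move as 1 unit. NDC80 and SPC24 rose in Kuramochi by 0.56 and 0.34 while SPC25 fell by 0.54, and NUF2 did not pass (0.09, limma adjusted p = 0.333). In OV-90, NDC80, SPC24 and SPC25 fell by 0.28, 0.44 and 0.66. With the length trend removed, NDC80 no longer passed there (limma adjusted p = 0.144), and SPC24 and SPC25 changed by -0.39 and -0.34 (adjusted p = 0.0237 and 0.0291, limma). NDC80 also fell by 0.24 in EFO-21, and ZWINT, which links the network to the ROD complex, rose by 0.45 in Kuramochi. NSL1 rose by 0.24 in OVSAHO, and PMF1 fell by 0.38 in Kuramochi and 0.60 in OV-90. The calls of NSL1 in OVSAHO and PMF1 in OV-90 were lost with the length trend removed (-0.03 and -0.20, limma adjusted p = 0.807 and 0.0549). KNL1, MIS12 and NUF2 passed in no line. KNL1, the scaffold that binds BUB1 and BUB3, had differences of 0.47 in OVSAHO and 0.64 in OV-90 with limma adjusted p-values of 0.0725 and 0.155.

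The SKA complex follows microtubule tips with the NDC80 complex. SKA1 rose in 3 lines and fell in the 1 line where its parental level was highest. It went from 5.80, 5.77 and 5.84 to 6.38, 6.59 and 6.4 in Kuramochi, a rise of 0.65 ± 0.11 (SE, limma adjusted p = 0.00334). In EFO-21 it went from 6.09, 6.10 and 5.99 to 6.57, 6.65 and 6.58, a rise of 0.55 ± 0.07 (SE, limma adjusted p = 0.0013). In OV-90 the parental values of 5.30 and 5.78 lay below the resistant values of 6.28, 6.25 and 6.18 (0.70 ± 0.18, limma adjusted p = 0.0425).

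In OVSAHO, SKA1 stood at 7.77, 7.92 and 8.0 in parental and at 7.48, 7.43 and 7.61 in resistant libraries, a difference of -0.39 ± 0.08 (SE, limma adjusted p = 0.0134). The change in OVSAHO lay 1.02 ± 0.12 (SE) below the mean of the other 3 lines (limma adjusted p = 2.55e-06). SKA2 fell by 0.92 in OV-90, the third largest fall there. SKA3 fell by 0.49 in Kuramochi and rose by 0.22 in OVSAHO.

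Among the centromere proteins, 3 of 7 rose and 1 fell in Kuramochi, 3 rose and 0 fell in OVSAHO, 1 rose and 2 fell in OV-90, and 3 rose and 2 fell in EFO-21. CENPA, the histone variant that marks the centromere, rose in 2 lines and fell in the other 2. It rose in Kuramochi, from 7.0, 7.28 and 7.37 to 7.60, 7.48 and 7.70, by 0.37 ± 0.12 (SE, limma adjusted p = 0.0442). In OVSAHO it rose from 7.94, 7.89 and 7.80 to 8.27, 8.21 and 8.28, by 0.38 ± 0.05 (SE, limma adjusted p = 0.00318). In both lines the groups did not overlap.

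In OV-90, CENPA stood at 8.01 and 7.89 in parental and at 6.88, 7.01 and 6.93 in resistant libraries, a difference of -1.01 ± 0.09 (SE, n = 2 and 3), 0.497 of the parental level (limma adjusted p = 0.00806). In EFO-21 the values of 7.92, 7.96 and 7.77 became 7.31, 7.38 and 7.38, a difference of -0.53 ± 0.06 (SE, limma adjusted p = 0.00113). The parental pair of OV-90 was close together for this gene, but without any 1 resistant library the call in OV-90 was lost (limma adjusted p = 0.0504 to 0.0599).

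CENPF, a large coiled-coil protein of the outer kinetochore and a marker of G2 and mitosis, was higher in OV-90, OVSAHO and EFO-21. In OV-90 it stood at 6.02 and 7.18 in parental and at 7.90, 7.92 and 8.08 in resistant libraries. The resistant libraries lay close together and above both parental ones, which differed from each other by nearly as much as the groups did, and the rise of 1.37 ± 0.36 (SE, n = 2 and 3) was 2.58-fold (limma adjusted p = 0.0425, and 0.11 to 0.131 without any 1 resistant library). Its size depended on the parental library used, at 0.78 without library 2 and 1.95 without library 3 (limma adjusted p = 0.0195 and 0.00301, with 1 parental library left). The rises in OVSAHO and EFO-21 were 0.42 and 0.32. With the length trend removed, CENPF no longer passed in OV-90 (0.61, limma adjusted p = 0.089) or OVSAHO (0.18, adjusted p = 0.0962) and passed only in EFO-21 (0.24, adjusted p = 0.00698). In Kuramochi the parental values of 9.91, 9.10 and 9.01 and the resistant values of 9.46, 9.69 and 8.79 overlapped (difference -0.03, limma adjusted p = 0.952).

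CENPM, a small subunit of the constitutive centromere network, moved in the opposite direction in OV-90. Its values were 8.42 and 7.78 in parental and 6.66, 6.55 and 6.42 in resistant libraries, a difference of -1.55 ± 0.22 (SE, n = 2 and 3), 0.341 of the parental level (limma adjusted p = 0.0157, and 0.0694 to 0.0791 without any 1 resistant library). In EFO-21 it rose by 0.43, from 7.23, 7.26 and 7.41 to 7.67, 7.85 and 7.66 (limma adjusted p = 0.00521). Both changes were between groups that did not overlap. CENPI rose by 0.86 in Kuramochi and 0.37 in EFO-21, CENPK fell by 0.33 in Kuramochi and rose by 0.56 in OVSAHO, and CENPN rose by 0.25 in Kuramochi and fell by 0.39 in EFO-21. CENPH passed in no line, with differences from -0.13 to 0.18.

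Of the 8 spindle motors and regulators, 6 rose and 1 fell in Kuramochi, against 1 and 2 in OVSAHO, 1 and 0 in OV-90, and 2 and 3 in EFO-21. The genes that rose in Kuramochi were AURKA, a centrosomal kinase (0.65), its activator TPX2 (0.32), the plus-end motor KIF18A (0.43), KIF20A (0.26) and KIF23 (0.49), motors of the central spindle and cytokinesis, and PRC1 (0.41), which bundles the central spindle. KIF2C fell there by 0.25. AURKA stood at 7.49, 7.59 and 7.48 in parental and 8.09, 8.28 and 8.12 in resistant Kuramochi. It fell by 0.17 in OVSAHO and by 0.36 in EFO-21, and its change in Kuramochi exceeded the mean of the other 3 lines by 0.87 ± 0.09 (SE, limma adjusted p = 1.43e-07).

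In EFO-21, KIF2C went from 8.05, 8.01 and 8.03 to 7.42, 7.43 and 7.48, a fall by 0.59 (SE 0.04, limma adjusted p = 0.000115). KIF11, the bipolar motor that separates spindle poles, rose there by 0.48 and had a difference of 0.83 in OV-90 that did not pass (limma adjusted p = 0.0653). KIF18A rose by 0.93 in OV-90, the second largest rise there. KIF20A rose by 0.25 in OVSAHO and fell by 0.26 in EFO-21. PRC1 fell by 0.15 in OVSAHO, and TPX2 rose by 0.16 in EFO-21.

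In the anaphase-promoting complex and its regulators and targets, 2 of 8 genes rose and 2 fell in Kuramochi, 1 rose and 2 fell in OVSAHO, 0 rose and 4 fell in OV-90, and 0 rose and 3 fell in EFO-21. CDC16 (APC6) had the largest fall of any member in Kuramochi and in OVSAHO. In Kuramochi it went from 6.84, 7.02 and 7.04 to 5.50, 5.45 and 5.53, a difference of -1.48 ± 0.10 (SE, n = 3 and 3), 0.36 of the parental level (limma adjusted p = 0.000118). In OVSAHO values of 8.14, 8.17 and 8.18 became 7.59, 7.67 and 7.72, a difference of -0.50 ± 0.04 (SE, limma adjusted p = 0.000977). The libraries of each group were tight and the groups far apart in both.

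In EFO-21, CDC16 went from 6.60, 6.67 and 6.66 to 6.23, 6.43 and 6.49, a difference of -0.26 ± 0.09 (SE) just past the threshold (limma adjusted p = 0.0487). In OV-90 it went from 8.17 and 8.12 to 7.86, 7.93 and 7.92, a difference of -0.24 ± 0.07 just short of it (limma adjusted p = 0.0513). Resistant libraries were thus below parental ones in all 4 lines, and the size of the fall in Kuramochi differed from the mean of the other 3 lines by -1.14 ± 0.08 (SE, limma adjusted p = 1.56e-09).

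CDC20 rose in Kuramochi, from 11.10, 11.24 and 11.26 to 11.53, 11.54 and 11.53 (0.34, limma adjusted p = 0.00443). It fell in EFO-21, from 9.40, 9.36 and 9.44 to 8.84, 8.89 and 8.87 (-0.54, limma adjusted p = 0.0001). It also fell in OV-90, by 0.28, a call that was lost with the length trend removed (-0.05, limma adjusted p = 0.509). The line with the lowest parental CDC20 was thus the one where it fell the most. FZR1 (CDH1), the activator of the complex in late mitosis and G1, rose by 0.27 in Kuramochi and fell by 0.45 in OV-90. UBE2C, the ubiquitin-conjugating enzyme that works with the complex, fell by 0.29 in OVSAHO and 0.67 in OV-90. PTTG1 fell by 0.64 in OV-90 and 0.61 in EFO-21. The OV-90 calls of UBE2C and PTTG1 were lost with the length trend removed (limma adjusted p = 0.134 and 0.103). ANAPC1 fell by 0.71 in Kuramochi, and CDC27 rose by 0.32 in OVSAHO. ESPL1 passed in no line. PTTG1, CDC27 and ANAPC1 have near-identical copies or pseudogenes elsewhere in the genome and PMF1 shares exons with a readthrough transcript, so their values are uncertain to the extent that reads were split between copies.

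Across the 4 lines, 45 of the 51 genes passed in at least 1 line and 6 in none (SGO1, KNL1, CENPH, MIS12, NUF2 and ESPL1). In single lines, 33.3% (OVSAHO) to 48.4% (EFO-21) of all genes passed in either direction. The share of all genes that passed in at least 1 line is not given, so this count is not a result about the members. CENPF, SKA1 and DSN1 were higher in 3 lines, 5.9% of the members over a background of 5.63% of all genes, and MAD2L1 and CDC16 were lower in 3 (3.9%, background 5.25%). No member was higher in 4 lines or lower in 4 (0 and 0, background 0.628% and 0.706%). These counts depended on the processing. With the transcript length trend removed, DSN1, KNTC1 and SKA1 were higher in 3 lines (5.88%, background 5.04%) and CDC16 was lower in 3, and MAD2L1 and ANAPC1 were lower in all 4 (3.92%, background 0.702%). MAD2L1 then changed by -0.94, -0.54, -0.56 and -1.23 in Kuramochi, OVSAHO, OV-90 and EFO-21, and ANAPC1 by -0.66, -0.23, -0.34 and -0.21. In the main fits, 18 members (35.3%, background 25.4%) were higher in at least 1 line and lower in at least 1 other. Among them were CENPA, CDC20, AURKA, AURKB, TTK, TRIP13, NDC80 and MAD1L1. This count depended on the processing too. With the length trend removed, TTK kept no call above 0 (limma adjusted p = 0.0585 in Kuramochi and 0.0525 in OV-90). CENPK and FZR1 then lost their calls in Kuramochi (limma adjusted p = 0.0564 and 0.154). Other members gained calls in both directions in that fit. They were SPC25 (-0.48 in Kuramochi, 0.39 in EFO-21), BUB3 (0.55 in Kuramochi, -0.32 in OVSAHO), TPX2 (0.30 in Kuramochi, -0.25 in OV-90) and PTTG1 (0.20 in OVSAHO, -0.43 in EFO-21). No share of all genes with calls in both directions is given for it. The changes of the 51 genes correlated only weakly between lines, with Pearson's r of 0.04 (Kuramochi and OV-90) to 0.24 (OVSAHO and EFO-21) across genes, which are not independent replicates. Within groups, after subtraction of group means, the median correlation between a pair of members over the 23 libraries was 0.27. Without the parental OV-90 libraries it was 0.23. No value for pairs of all genes is given beside it, and the part of transcript length in this correlation was not tested.

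The difference in change between lines was itself tested. By limma's interaction F test, the change of 43 of the 51 genes differed between the lines (background 75.1%). The 10 genes with the smallest p were CDC16, CENPA, CDC20, TRIP13, MAD1L1, AURKA, NDC80, SPC24, CENPM and SKA1, with adjusted p-values from 1.19e-08 to 4.99e-06. TRIP13 in EFO-21 lay 0.63 ± 0.06 (SE) above the mean of the other 3 lines (limma adjusted p = 3.45e-07), and SPC24 in OV-90 lay 0.62 below it (difference -0.62, limma adjusted p = 1.15e-06). Averaged over the lines, 19 members were higher and 12 lower in a limma fit of all 23 libraries (background 29.8% and 28.6%), led by falls in CDC16 (-0.62) and MAD2L1 (-0.64). KIF2C (-0.23) was next, followed by rises in KNTC1 (0.51), CENPI (0.42), SKA1 (0.38) and KIF18A (0.38). With the line as an additive block, which pools the spread of the change between lines with that between libraries, 15 were higher and 5 lower. No share of all genes is given for that block fit.

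In OV-90 the change of a member went with the length of its transcript. Spearman's rho between the log2 change and the length of the canonical transcript was 0.66 over the 51 genes and 0.56 over the 10202 genes with a position and a mean above the median. Over the members it was 0.03 in Kuramochi, 0.19 in OVSAHO and 0.10 in EFO-21. Over the 10202 genes it was 0.02, 0.35 and 0.20 in these lines, so a trend on length was also present in OVSAHO and EFO-21. The difference between the 2 parental OV-90 libraries (library 2 minus library 3) went with length too, with a rho of -0.64 over the members, and in parental Kuramochi the deviation of library 4 from its group gave a rho of 0.76. CENPF, at 10290 bases the longest transcript among the genes that moved 2-fold, was the member with the largest rise in OV-90, and CENPM, at 938 bases, the member with the largest fall. With the trend on transcript length removed, as above, CENPM changed by -1.12 (limma adjusted p = 0.00945) and CENPA by -0.70 (adjusted p = 0.00916). In the same fit 10 of the 20 calls in OV-90 were lost, 4 higher and 6 lower. The higher ones were CENPF (0.61, limma adjusted p = 0.089), BUB1B (0.43, 0.0524), TTK (0.33, 0.0525) and INCENP (-0.001, 0.995), and the lower ones NDC80 (adjusted p = 0.144), UBE2C (0.134), PMF1 (0.0549), CDC20 (0.509), AURKB (0.298) and PTTG1 (0.103).

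The calls that held in OV-90 with the length trend removed were SKA1 and KIF18A among the higher genes and CENPA, CENPM, BIRC5, SKA2, SPC24, SPC25, FZR1 and TRIP13 among the lower ones. Another 6 genes became lower there, MAD2L1 (-0.56), NSL1 (-0.97), CENPN (-0.64), TPX2 (-0.25), BUB3 (-0.43) and ANAPC1 (-0.34), of which BUB3 and ANAPC1 had values above 0 before. In the other lines fewer calls were lost, CENPK, FZR1 and TTK in Kuramochi, AURKA, CENPF, NSL1 and UBE2C in OVSAHO, and BUB3 in EFO-21. Calls were gained for BUB1B and KNTC1 (higher) and AURKB and BUB1 (lower) in Kuramochi, for SPC24, SPC25, CENPM, CENPH and PTTG1 (higher) and ESPL1, BUB3 and ANAPC1 (lower) in OVSAHO, and for UBE2C and SPC25 (higher) and ANAPC1 (lower) in EFO-21. Apart from this fit, the part of the length-linked difference between the parental OV-90 libraries in the changes of the members was not tested.

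**Figure D3:**
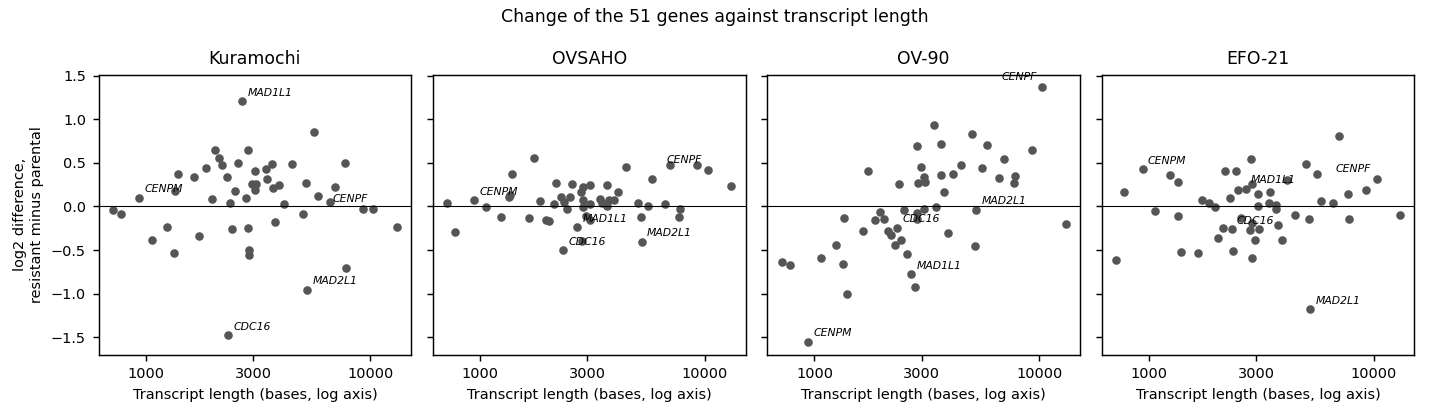
Log2 difference of resistant minus parental group means of the 51 genes (points) against the length of the canonical transcript in bases (log axis), 1 panel per line. In OV-90 longer transcripts tended to have higher changes (Spearman's rho 0.66), though the longest, NSL1, lies at -0.20, and in the other 3 panels rho is 0.03 to 0.19.

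The promoter letters were also set beside the changes. In OV-90, 5 of the 22 members with a TTTGAA in the window were higher and 5 lower (median change 0.26), and 0 of the 19 without it were higher and 6 lower (median -0.20). In Kuramochi, 10 of 22 with it were higher and 5 lower, and 6 of 19 without it were higher and 5 lower. The medians were 0.15 and 0.10 in Kuramochi, 0.04 and 0.07 in OVSAHO, and -0.002 and 0.07 in EFO-21. The split was largest in OV-90, where transcript length moved with the change, and its size was not tested.

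The largest changes in Kuramochi and EFO-21 were set beside those of the neighbouring genes on the chromosome, taking the 10 measured genes on each side (GRCh37). MAD1L1 lies at chr7:1855429-2272878 on the minus strand, in the short arm near the chromosome end. Of its 20 neighbours, 19 were higher and 1 lower in resistant Kuramochi, with a median change of 1.15, close to the 1.20 of MAD1L1. The neighbours included INTS1 (1.12), MAFK (1.10), SNX8 (1.92) and EIF3B (1.09). In the other lines the median of the same neighbours was -0.04 (OVSAHO), -0.49 (OV-90) and 0.25 (EFO-21), beside -0.24, -0.78 and 0.20 for MAD1L1.

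CDC16 lies at chr13:115000362-115038198 on the plus strand, with 2 measured genes between it and the chromosome end and hence 12 neighbours. In Kuramochi 7 of them were lower and 3 higher, with a median of -1.24. Both genes on its far side, UPF3A (-1.64) and CHAMP1 (-1.81), and RASA3 on its near side (-1.54) fell by amounts like that of CDC16 (-1.48), and GAS6 (1.22) and its divergent transcript rose. In OVSAHO and EFO-21, where CDC16 also fell, the median of the neighbours was 0.06 and 0.63.

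MAD2L1 lies at chr4:120976778-120988013 on the minus strand. In EFO-21, 11 of its 20 neighbours were lower and 0 higher, with a median of -0.81, and they included ANXA5 (-1.23), EXOSC9 (-1.32), BBS7 (-1.05) and CCNA2 (-1.05), the gene of cyclin A2. In Kuramochi 8 were lower and 2 higher (median -0.54), beside -0.96 for MAD2L1. In OVSAHO, where MAD2L1 fell by less, the median of the neighbours was 0.21.

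Some other members had neighbours that moved with them in single lines, and some did not. The examples given here were picked with their values in view. CENPI in Kuramochi changed by 0.86 beside a neighbour median of 0.89 (14 of 20 higher), and AURKA by 0.65 beside 0.59 (12 of 20 higher). CDCA8 in EFO-21 changed by -0.51 beside -0.42 (13 of 20 lower), CENPA in OVSAHO by 0.38 beside 0.42 (12 of 20 higher), and SKA1 in OVSAHO by -0.39 beside -0.37 (12 of 20 lower). For CENPA in OV-90 (-1.01) the neighbour median was -0.28, for CENPF there (1.37) it was 0.12, and for CENPM there (-1.55) it was -0.56. CDC20 changed by -0.54 in EFO-21 beside a neighbour median of -0.56, but by 0.34 in Kuramochi beside -0.33. TTK in Kuramochi changed by 0.26 beside -0.65.

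**Figure D4:**
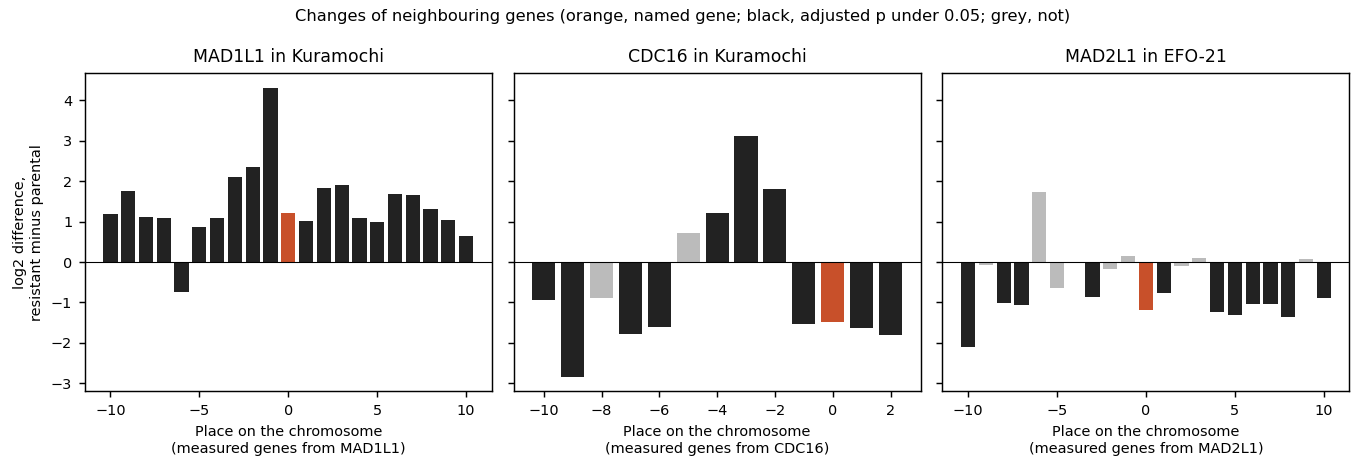
Log2 difference of resistant minus parental group means for the measured genes around MAD1L1 and CDC16 in Kuramochi and MAD2L1 in EFO-21, in their order along the chromosome (orange, the named gene; black, limma adjusted p under 0.05; grey, not past it). Around MAD1L1 19 of 20 neighbours are higher, around CDC16 7 of 12 are lower, and around MAD2L1 11 of 20 are lower.

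The other genes of the pathway were counted over whole lists, which were chosen with earlier results of these data known. Those named with values were picked with their values in view. The background in Kuramochi, OVSAHO, OV-90 and EFO-21 was 23.6%, 17.1%, 18.1% and 25% of all genes higher and 23.3%, 16.2%, 17.9% and 23.4% lower. Of 20 other centromere and kinetochore genes, 5 were higher and 3 lower in Kuramochi (25% and 15%) and 4 and 2 in OVSAHO (20% and 10%). In OV-90 the counts were 1 and 4 (5% and 20%), and in EFO-21 they were 8 and 2 (40% and 10%). CENPE, the kinetochore motor, fell by 1.46 in EFO-21, and CENPV rose by 1.31 in Kuramochi. Of 25 other spindle and cytokinesis genes, 7 and 4, 10 and 2, 6 and 4, and 9 and 4 were higher and lower in the lines in that order. These were 28% and 16%, 40% and 8%, 24% and 16%, and 36% and 16% of the list. KIF4A (1.28) and RACGAP1 (1.07) rose in Kuramochi, and PLK1, the master mitotic kinase, changed little, by -0.14, 0.02, -0.22 and 0.16. Of 13 other genes of the anaphase-promoting complex, 3 and 3, 2 and 3, 2 and 4, and 2 and 5 were higher and lower. Their shares were 23.1% and 23.1%, 15.4% and 23.1%, 15.4% and 30.8%, and 15.4% and 38.5%. ANAPC15, which promotes turnover of the checkpoint complex, was lower in each line, by -0.69 in Kuramochi, -0.59 in OVSAHO, -0.84 in OV-90 and -0.44 in EFO-21, all past the limma threshold.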

How the data were processed

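The authors made stranded mRNA libraries from total RNA of 23 cultures of established ovarian cancer lines. They aligned the reads to GRCh37/hg19, dropped exons with few reads, and summarised each of the 51 genes by a robust linear model of its exon and junction reads. The authors deposited these values on the log2 scale after quantile normalization, which hides any shift shared by most genes. No counts were given, and no counting interval could be computed. Libraries were grouped by line and state from the column names, which carry library numbers but no replicate numbers, and 0 columns belonged to other samples. Symbols were matched for 20745 of the 21658 genes (95.8%) through a RefSeq table of GRCh38.p14, and positions and canonical transcript lengths came from GENCODE 44 lifted to GRCh37.

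Each line was fitted alone with limma 3.58.1 in R 4.3.3 (eBayes with a mean-variance trend, no filter, no pseudocount), two-sided, with Benjamini-Hochberg adjustment over all 21658 genes and a threshold of 0.05. The interaction and average tests used 8 group means over all libraries. The code was tested on simulated data with the group sizes and spreads of each line. The 51 genes, their role groups and the other lists were chosen with earlier results of these data known. Genes named with values are those changed at least 2-fold, the 5 largest rises and 5 largest falls per line, those called one way in at least 3 lines, the 10 with the smallest interaction p and the 5 with the smallest parental p, and every gene is named in its role group. The alternatives were 1 fit of the 23 libraries, no trend, a filter at the 25th percentile, recentred medians, a 2-fold threshold, an additive line block, leaving out each library, and, added after seeing the data, removal of the transcript length trend and omission of OV-90.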

Additional observations from a re-analysis of the deposited data

Results flagged for a closer look

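The change on resistance differed between the lines for 43 of the 51 genes by limma's interaction F test (background 75.1%). The 10 genes with the smallest p are given here with the direction of each line that passed. CDC16 (adjusted p = 1.19e-08) fell in Kuramochi, OVSAHO and EFO-21, by 1.48, 0.50 and 0.26. CENPA (adjusted p = 2.4e-08, limma) rose in Kuramochi and OVSAHO and fell in OV-90 and EFO-21. CDC20 (adjusted p = 5.22e-08, limma) rose in Kuramochi and fell in OV-90 and EFO-21. TRIP13 (adjusted p = 4.72e-07, limma) fell in Kuramochi and OV-90 and rose in EFO-21. MAD1L1 (adjusted p = 8.16e-07, limma) rose in Kuramochi and fell in OVSAHO. AURKA (adjusted p = 8.3e-07, limma) rose in Kuramochi and fell in OVSAHO and EFO-21. NDC80 (adjusted p = 1e-06, limma) rose in Kuramochi and fell in OV-90 and EFO-21. SPC24 (adjusted p = 1.29e-06, limma) rose in Kuramochi and fell in OV-90. CENPM (adjusted p = 3.33e-06, limma) fell in OV-90 and rose in EFO-21. SKA1 (adjusted p = 4.99e-06, limma) rose in Kuramochi, OV-90 and EFO-21 and fell in OVSAHO. The OV-90 calls of CDC20 and NDC80 were lost with the transcript length trend removed (limma adjusted p = 0.509 and 0.144). So was the OVSAHO call of AURKA (limma adjusted p = 0.0818). Without resistant library 13, 14 or 15, 0 members passed in OV-90 in either direction, and no share of all genes is given for those fits. No group held enough libraries for a single library to be tested against the rest of its group.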

How the results depend on the processing

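No paired analysis was possible because the columns of the table carry no replicate numbers. With the threshold at 2-fold, 1 member was higher and 1 lower in Kuramochi, 0 and 0 in OVSAHO, 1 and 2 in OV-90, and 0 and 1 in EFO-21. With the 23 libraries in 1 fit, 21 members were higher in OV-90 and 3 lower in OVSAHO. Without the mean-variance trend 2 were higher and 9 lower in OV-90, and with the transcript length trend removed 2 were higher there and MAD2L1 and ANAPC1 were lower in all 4 lines. With the additive line block 5 were lower on average. None of the 6 genes changed at least 2-fold turned direction under any alternative run, and CENPF in OV-90 lost the limma threshold without the trend (adjusted p = 0.0537) and with the length trend removed (adjusted p = 0.089). Leaving out 1 library at a time gave 13 to 20 higher and 7 to 12 lower in Kuramochi, 4 to 11 and 3 to 5 in OVSAHO (fewest without library 20), 0 to 22 and 0 to 16 in OV-90, and 10 to 15 and 12 to 13 in EFO-21, and the interaction count was 41 to 46. In OV-90 leaving out a parental library leaves 1, which is assumed to vary like the resistant ones. Recentring and the filter on low values moved no count by more than 1.5 times. Apart from the 2-fold threshold and the length-removed fits, no share of all genes called is given for these alternatives. Their counts are therefore not set against a background. The cause of these shifts was not tested.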

Other observations

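Of 17 cohesin and condensin genes, which hold sister chromatids together and fold chromosomes, 13 were higher and 0 lower in OVSAHO (median change 0.33, background 17.1% and 16.2% of all genes), 9 and 1 in OV-90 (median 0.73, background 18.1% and 17.9%), and 10 and 3 in EFO-21 (median 0.29, background 25% and 23.4%). In Kuramochi 2 were higher and 5 lower (median -0.14, background 23.6% and 23.3%). STAG2, a cohesin subunit, rose by 0.45 in OVSAHO, 1.38 in OV-90 and 0.61 in EFO-21, and SMC1A by 0.42, 1.17 and 0.48. PDS5B, a cohesin regulator, rose by 0.39, 0.79 and 0.50 in those lines and fell by 1.06 in Kuramochi, where NCAPD3, a condensin subunit, fell by 0.97. Many of these transcripts are long, and the change of genes with a mean above the median went with transcript length. Spearman's rho was 0.56 in OV-90, 0.35 in OVSAHO, 0.20 in EFO-21 and 0.02 in Kuramochi. These genes were named after their values were seen, and the part of length in the counts was not tested.

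Of 12 proliferation reference genes, 9 were higher and 2 lower in EFO-21 (median 0.40, background 25% and 23.4% of all genes). The counts were 6 and 1 in OVSAHO (median 0.22, background 17.1% and 16.2%) and 3 and 2 in OV-90 (median 0.09, background 18.1% and 17.9%). In Kuramochi 1 was higher and 4 lower (median 0.01, background 23.6% and 23.3%). MCM2, MCM3, MCM5 and MCM6, parts of the replicative helicase, rose in both OVSAHO (0.52, 0.38, 0.35 and 0.59) and EFO-21 (0.90, 0.66, 0.54 and 0.42). Kuramochi, the line with the most kinetochore and spindle members higher, was the line with the fewest of these genes higher. CDK1 was higher there by 1.0, with changes of -0.75 in PCNA and -0.83 in CCNA2. In EFO-21, CCNA2 changed by -1.05.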
